A study of Mus musculus with 4 samples.

Results

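Monocytes are circulating phagocytes that form in the bone marrow and carry surface receptors for growth factors, bacterial products, antibodies and vessel walls. They also release matrix proteins, proteases and antibacterial enzymes. Described here is the RNA of 10 such surface and secreted products: the matrix proteins Vcan (versican) and Fn1 (fibronectin), the clot-stabilising enzyme F13a1 (coagulation factor XIII A chain), the antibacterial enzyme Lyz2 (lysozyme), the lysosomal protease Ctss (cathepsin S), the integrin chain Itgam (CD11b), the lipopolysaccharide co-receptor Cd14, the low-affinity antibody receptor Fcgr3 (CD16), the receptor of macrophage colony-stimulating factor Csf1r, and the fractalkine receptor Cx3cr1. Members were taken as all probe sets annotated to exactly 1 of these genes, which gave 21 probe sets for 10 genes, of 34945 probe sets and 18193 genes with such an annotation. Several of these genes are also made by other cells of the marrow: Lyz2 and Itgam by neutrophils, Itgam, Fcgr3 and Cx3cr1 by natural killer cells, F13a1 by megakaryocytes, and Fn1 and Vcan by stromal cells.

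RNA from 4 mouse samples was hybridised to Affymetrix arrays, 1 array per sample. The mixed lineage leukemia grew out of blood-forming stem and precursor cells that had received both AF4-MLL and MLL-AF4, the 2 reciprocal fusions of the histone methyltransferase MLL and the elongation factor AF4. A proB acute lymphoblastic leukemia (proB ALL) and a biphenotypic leukemia with both B and T features (B/T BAL) grew out of such cells that had received only AF4-MLL. The control was normal bone marrow without leukemia. The leukemic cells were taken unsorted from the marrow of moribund mice and typed by flow cytometry, so other marrow cells could be present, and fewer cells of a type cannot be told apart from less RNA per cell. The series title gives C57BL6 mice; the ages of the mice, the vector and the promoter that drove the fusions are not stated in the sources used here. No group had a replicate, so the signal of an array carries no replicate error and the number of arrays limits the precision.

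Signals are MAS5 values on a linear scale. The floor used here was 189, the median of all signals, and log2 differences were taken on the scale of log2(signal + 51.4), which understates the change of dim genes. The share of probe sets above this floor was 57.4% for the mixed lineage leukemia, 46.3% for the proB ALL, 49.0% for the B/T BAL and 47.2% for the normal marrow. Over all 14012 tested genes the median log2 difference from normal marrow was 0.08 in the mixed lineage leukemia, -0.11 in the proB ALL and 0.05 in the B/T BAL. On the array labelled proB ALL, 6 of 6 tested B-cell genes were 2-fold or more below normal marrow and 11 of 11 natural killer cell genes 2-fold or more above it. On the B/T BAL array 6 of 6 B-cell genes were 2-fold or more below normal marrow and 7 of 7 T-cell genes above it by that margin. The natural killer marker Klrb1c was not analysed here.

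The sequences just upstream of the start sites of 5 members are shown because all 5 genes were highest on the mixed lineage array: 4 of them held the motif described next, and Vcan had the largest difference from normal marrow by the probe sets that stand for the genes. Each runs 5′ to 3′ over the 250 bases before a RefSeq start site (GRCm38.p6). Capitals mark the letters GAGGAA, or TTCCTC on the other strand, a core recognised by PU.1, a transcription factor that monocytes need to form.
Vcan chr13:89742513-89742762 (- strand): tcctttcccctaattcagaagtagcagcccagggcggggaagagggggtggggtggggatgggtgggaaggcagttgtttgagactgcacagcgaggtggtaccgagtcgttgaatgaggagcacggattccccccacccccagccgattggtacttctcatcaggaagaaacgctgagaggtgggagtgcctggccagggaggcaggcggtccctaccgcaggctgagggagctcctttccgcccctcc
F13a1 chr13:37050245-37050494 (- strand): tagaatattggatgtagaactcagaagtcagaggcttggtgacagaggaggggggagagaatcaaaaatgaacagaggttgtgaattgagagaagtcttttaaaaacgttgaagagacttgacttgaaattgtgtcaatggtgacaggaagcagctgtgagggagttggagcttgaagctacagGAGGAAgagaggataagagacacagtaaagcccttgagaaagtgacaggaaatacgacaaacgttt
Itgam chr7:128062390-128062639 (+ strand): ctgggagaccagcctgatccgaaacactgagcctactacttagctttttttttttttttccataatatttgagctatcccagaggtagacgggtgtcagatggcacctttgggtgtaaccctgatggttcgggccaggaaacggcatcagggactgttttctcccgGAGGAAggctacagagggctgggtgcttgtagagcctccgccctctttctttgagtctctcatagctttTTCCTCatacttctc
Ctss chr3:95526536-95526785 (+ strand): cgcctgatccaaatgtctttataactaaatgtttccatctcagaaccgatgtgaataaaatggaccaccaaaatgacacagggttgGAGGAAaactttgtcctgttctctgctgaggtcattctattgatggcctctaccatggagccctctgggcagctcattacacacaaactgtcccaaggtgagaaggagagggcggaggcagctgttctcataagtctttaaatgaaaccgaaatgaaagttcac
Fcgr3 chr1:171059404-171059653 (- strand): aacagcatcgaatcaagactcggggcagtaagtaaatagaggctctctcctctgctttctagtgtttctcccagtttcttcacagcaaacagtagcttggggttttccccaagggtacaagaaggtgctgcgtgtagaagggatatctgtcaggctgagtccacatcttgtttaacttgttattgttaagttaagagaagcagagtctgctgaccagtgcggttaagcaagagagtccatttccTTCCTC

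The GAGGAA motif lay 66 bases upstream of the start site shown for F13a1, 164 bases upstream in Ctss, 6 bases upstream in Fcgr3, and 84 and 15 bases upstream in Itgam. Of 7 members searched, 4 genes held it at 1 or more start sites, against 23.4% of all 32536 windows of the same length. F13a1 and Fcgr3 had more than 1 window, so the count per gene is not on the footing of the share per window. The windows of Vcan, Lyz2 and Cx3cr1 and a second start site of F13a1 held no match, and Fn1, Csf1r and Cd14 were not analysed here. TTNNGNAA (or TTNCNNAA on the other strand), letters bound by C/EBP factors of myeloid cells, was present in 4 of the 7 genes, against 36.8% of all windows. That count too is per gene and the share per window. A match is a description of the letters and not a binding site.

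By the probe set that stands for each gene, all 10 had their highest signal on the mixed lineage array, where 34.7% of all tested genes had theirs. With the mean over probe sets 8 did, without Csf1r and Cx3cr1. Against normal marrow, 7 members (Vcan, Fn1, F13a1, Itgam, Cd14, Fcgr3 and Ctss) were above normal marrow by 2-fold or more in mixed lineage leukemia and 0 were below it by that margin, beside 18.8% and 15.2% of all tested genes. The share of probe sets above the floor was also highest on that array, as was the second percentile of signals, at 20.4 in the mixed lineage leukemia, 2.88 in the proB ALL, 3.97 in the B/T BAL and 3.52 in the normal marrow. The ratio of 3′ to 5′ Actb probe sets, a sign of RNA quality, was 3.10 in the mixed lineage leukemia, 2.47 in the proB ALL, 4.72 in the B/T BAL and 1.87 in the normal marrow. The same ratio for Gapdh was 1.24 in the mixed lineage leukemia, 1.275 in the proB ALL, 1.14 in the B/T BAL and 0.94 in the normal marrow. The part of these array differences in the counts was not tested. In proB ALL 0 members were higher and 8 lower by 2-fold or more, beside 11.3% and 18.7% of all genes. In B/T BAL 1 member (Vcan) was higher and 7 were lower by this measure, beside 15.4% and 17.7% of all genes. The members' median log2 differences from normal marrow were 1.27 in the mixed lineage leukemia, -1.82 in the proB ALL and -1.33 in the B/T BAL. These comparisons share the same normal array, and single arrays were compared without a test.

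**Figure D1:**
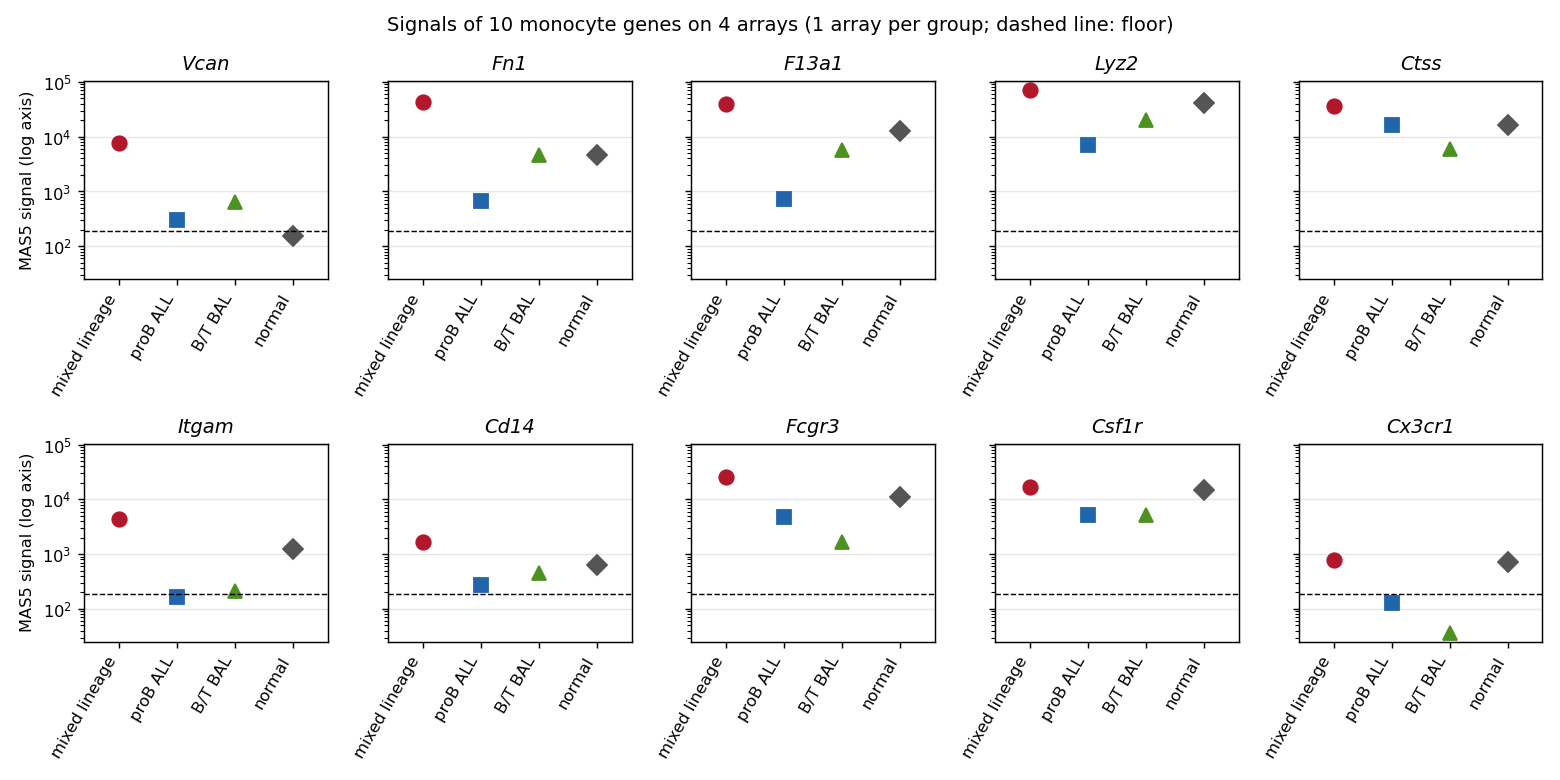
MAS5 signal (log axis) of the probe set that stands for each of the 10 genes on each of the 4 arrays, 1 point per array, with the floor as a dashed line. In every panel the mixed lineage point is the highest, by a wide gap for Vcan and Fn1 and by almost none for Csf1r and Cx3cr1.

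The matrix proteins showed the largest differences between mixed lineage leukemia and normal marrow. Vcan, a large proteoglycan that binds hyaluronan, had a signal of 7714 in the mixed lineage leukemia, 300.1 in the proB ALL, 634 in the B/T BAL and 157 in the normal marrow. Normal marrow was below the floor, so mixed lineage leukemia was at least 40.9-fold higher than normal marrow and 12.2-fold higher than the next array, B/T BAL. B/T BAL was at least 3.36-fold and proB ALL at least 1.59-fold higher than normal marrow, which makes Vcan the only member whose lowest signal was that of normal marrow, as it was for 19.1% of all tested genes. Of its 8 probe sets, 5 exceeded the floor, and 3 of these did so on the mixed lineage array only, so that the filter itself placed them highest there. A second probe set had 2630.1 in the mixed lineage leukemia, 97.8 in the proB ALL, 323 in the B/T BAL and 38.0 in the normal marrow, the same order as the first. Another probe set had 611 in the mixed lineage leukemia, 78.2 in the proB ALL, 14.0 in the B/T BAL and 132 in the normal marrow, so it placed normal marrow second and B/T BAL last. The size of the Vcan differences depended on the probe set. The mean over all 8 gave a log2 difference from normal marrow of 2.18 in the mixed lineage leukemia, -0.01 in the proB ALL and 0.47 in the B/T BAL, against 5.22, 0.75 and 1.72 for the probe set that stands for the gene, which ends the 2-fold call in the B/T BAL and places Vcan below Fn1 (3.04 by the mean over its probe sets) in the mixed lineage leukemia.

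Fn1, an adhesive matrix protein that integrins bind, had 43413 in the mixed lineage leukemia, 666 in the proB ALL, 4538 in the B/T BAL and 4677 in the normal marrow. Mixed lineage leukemia was 9.28-fold higher than normal marrow, proB ALL was 7.02-fold lower, and B/T BAL lay within 1.03-fold of it. Its other probe set had 1298 in the mixed lineage leukemia, 36.3 in the proB ALL, 271 in the B/T BAL and 131 in the normal marrow, again highest in mixed lineage leukemia and lowest in proB ALL. Of 14 stromal and endothelial genes, 2 were at least 2-fold higher and 5 lower in mixed lineage leukemia than in normal marrow, beside 18.8% and 15.2% of all tested genes. The summed signal of the 14 was 10456 in the mixed lineage leukemia, 5468 in the proB ALL, 80517 in the B/T BAL and 12521 in the normal marrow. On the B/T BAL array Fn1 was at the level of normal marrow and Vcan above it. The 2 largest signals in the B/T BAL sum were those of the collagen chain Col1a2 and the growth factor receptor Pdgfrb. Col1a2 had 38648 (2397 in normal marrow) and Pdgfrb had 30356 (427 in normal marrow). The list as a whole moved less: 5 of the 14 rose 2-fold or more above normal marrow on that array and 2 fell by as much. Over all tested genes these shares were 15.4% and 17.7%. The median log2 difference of the 14 was 0.17 there. The part of stromal cells in the Fn1 and Vcan signals was not tested.

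F13a1, which cross-links fibrin and fibronectin, had 39455 in the mixed lineage leukemia, 738 in the proB ALL, 5669.5 in the B/T BAL and 12879 in the normal marrow. It was 3.06-fold higher in mixed lineage leukemia than in normal marrow, 17.4-fold lower in proB ALL, the largest difference of a member on that array, and 2.27-fold lower in B/T BAL. Of 10 megakaryocyte and platelet genes, 2 were highest on the mixed lineage array, as F13a1 was, beside 34.7% of all tested genes. The platelet chemokine Pf4 had 531 in the mixed lineage leukemia, 883 in the proB ALL, 738 in the B/T BAL and 10077 in the normal marrow. Of the 10, 7 were at least 2-fold lower in mixed lineage leukemia than in normal marrow and 0 higher, beside 15.2% and 18.8% of all tested genes. The part of megakaryocytes in the F13a1 signal was not tested.

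Lyz2, an enzyme that cleaves bacterial cell walls, had 71213 in the mixed lineage leukemia, 6937 in the proB ALL, 20315 in the B/T BAL and 41486 in the normal marrow. It was 1.72-fold higher in mixed lineage leukemia than in normal marrow, under the 2-fold line (a log2 difference of 0.78, and 0.17 under quantile normalization), while proB ALL was 5.98-fold lower and B/T BAL 2.04-fold lower. The near-identical copy Lyz1 had 84318 in the mixed lineage leukemia, 18186 in the proB ALL, 39502 in the B/T BAL and 47316 in the normal marrow. Its probe set is of a kind that can bind related transcripts, so the signals of these copies may not be separate. Ctss, which trims the invariant chain in antigen-presenting cells, had 36412 in the mixed lineage leukemia, 16194 in the proB ALL, 5903 in the B/T BAL and 16562 in the normal marrow. It was 2.20-fold higher in mixed lineage leukemia than in normal marrow and 2.81-fold lower in B/T BAL, and it was the 1 member of the 10 for which proB ALL lay within 1.02-fold of normal marrow. Cd74, the invariant chain itself, had 13732 in the mixed lineage leukemia, 21778 in the proB ALL, 3049 in the B/T BAL and 12010.2 in the normal marrow, so it was also lowest in B/T BAL but highest in proB ALL.

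Among the surface receptors Itgam differed most from normal marrow in mixed lineage leukemia. Its signal was 4382 in the mixed lineage leukemia, 163 in the proB ALL, 216 in the B/T BAL and 1262 in the normal marrow. Mixed lineage leukemia was 3.47-fold higher than normal marrow, proB ALL was below the floor and at least 6.69-fold lower, and B/T BAL was 5.83-fold lower. Itgb2 (CD18), the chain that pairs with Itgam, had 33514 in the mixed lineage leukemia, 16701 in the proB ALL, 11908 in the B/T BAL and 20759.7 in the normal marrow, so it was within 2-fold of normal marrow on each array. Itgb2 also pairs with integrin chains of lymphocytes. Icam1, a ligand of this integrin, had 1163 in the mixed lineage leukemia, 5244 in the proB ALL, 1147 in the B/T BAL and 1266 in the normal marrow, with its high signal in proB ALL.

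Cd14 had 1693 in the mixed lineage leukemia, 275 in the proB ALL, 445 in the B/T BAL and 646 in the normal marrow. It was 2.62-fold higher in mixed lineage leukemia than in normal marrow, 2.35-fold lower in proB ALL and 1.45-fold lower in B/T BAL. Its partners in lipopolysaccharide sensing followed in part. The receptor Tlr4 had 1124 in the mixed lineage leukemia, 198 in the proB ALL, 181 in the B/T BAL and 468 in the normal marrow. The lipopolysaccharide-binding protein Lbp had 10457 in the mixed lineage leukemia, 533 in the proB ALL, 1002 in the B/T BAL and 4527 in the normal marrow, and like Cd14 and Tlr4 it was highest in mixed lineage leukemia with normal marrow next. The Tlr4 adaptor Ly96 did not follow, with 669 in the mixed lineage leukemia, 629 in the proB ALL, 419.6 in the B/T BAL and 895 in the normal marrow, highest in normal marrow.

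Fcgr3 had 25899 in the mixed lineage leukemia, 4815 in the proB ALL, 1639 in the B/T BAL and 11180.0 in the normal marrow. It was 2.32-fold higher in mixed lineage leukemia than in normal marrow, 2.32-fold lower in proB ALL and 6.82-fold lower in B/T BAL. Fcgr2b, an inhibitory antibody receptor with a closely related sequence, had 15531 in the mixed lineage leukemia, 5152 in the proB ALL, 1633 in the B/T BAL and 5879 in the normal marrow. Fcer1g, the signalling chain of Fcgr3, had 50214 in the mixed lineage leukemia, 24988 in the proB ALL, 8587 in the B/T BAL and 26812 in the normal marrow, and so differed from normal marrow by less than 2-fold in mixed lineage leukemia and proB ALL and by a log2 of -1.64 in B/T BAL. The receptors Fcgr3, Cx3cr1 and Itgam were lower in proB ALL than in normal marrow while natural killer cell genes were higher there, with Gzmb (granzyme B) at 26953 against 178 in normal marrow and Ncr1 (an activating receptor) at 4694 against 251.

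Csf1r and Cx3cr1 set the mixed lineage array apart from the other leukemias but not from normal marrow. Csf1r had 17085 in the mixed lineage leukemia, 5169 in the proB ALL, 5175 in the B/T BAL and 14944 in the normal marrow. It was 1.14-fold higher in mixed lineage leukemia than in normal marrow, and 2.89-fold lower in both proB ALL and B/T BAL. Its other 2 probe sets gave log2 differences of -0.24 and -0.02 between mixed lineage leukemia and normal marrow, so the order of these arrays for Csf1r is not settled. The Csf1r ligand Csf1 had 635 in the mixed lineage leukemia, 171 in the proB ALL and 663 in the normal marrow, with a log2 difference of -1.51 between the B/T BAL and the normal marrow, and the other ligand, Il34, was below the floor on all 4 arrays. Cx3cr1, which binds a chemokine of the vessel wall, had 767 in the mixed lineage leukemia, 126 in the proB ALL, 36.7 in the B/T BAL and 716 in the normal marrow. It was below the floor in both AF4-MLL leukemias, at least 3.80-fold lower than in normal marrow. Its second probe set was below the floor on all 4 arrays and had its highest signal, 173, in normal marrow, so mixed lineage leukemia and normal marrow cannot be ordered for this gene either. The Cx3cr1 ligand Cx3cl1 had 200.5 in mixed lineage leukemia and was at or below the floor elsewhere.

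**Figure D2:**
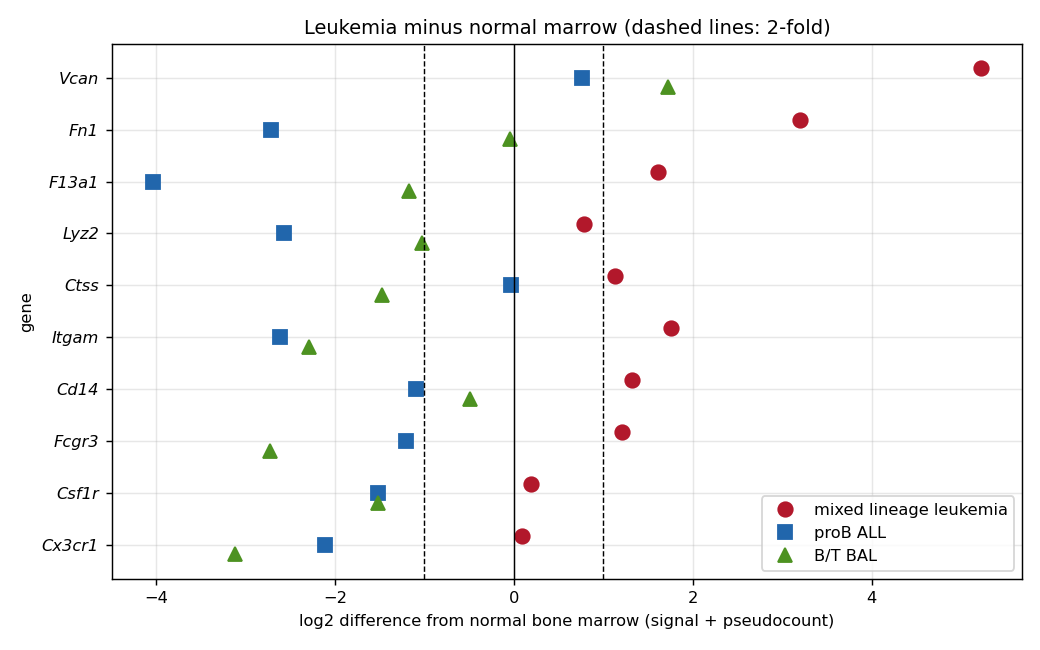
Log2 difference of each leukemia from normal bone marrow for the 10 genes, on the scale of log2(signal + 51.4), 1 point per array, with dashed lines at 2-fold. Mixed lineage points run from 0.09 (Cx3cr1) to 5.22 (Vcan), proB ALL points from -4.03 (F13a1) to 0.75 (Vcan) and B/T BAL points from -3.12 (Cx3cr1) to 1.72 (Vcan).

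Against each AF4-MLL leukemia, all 10 genes were at least 2-fold higher in the mixed lineage leukemia and 0 lower. Over all tested genes, 27.3% were higher and 15.7% lower than in the proB ALL, and 26.3% were higher and 21.2% lower than in the B/T BAL. Median log2 differences of the members were 2.88 from the proB ALL and 3.00 from the B/T BAL, beside 0.18 and 0.08 over all genes. F13a1, Itgam and Fcgr3 were at least 2-fold above normal marrow in the mixed lineage leukemia and at least 2-fold below it in both AF4-MLL leukemias, as were 1.37% of all tested genes.

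At least 2-fold above all other 3 arrays on the mixed lineage array were 7 of the 10 genes, beside 11.5% of all tested genes. At the level of probe sets, 17 of the 21 exceeded the floor on at least 1 array, and the remaining 4, 3 of Vcan and 1 of Cx3cr1, were below it throughout. Of the 2 leukemias with AF4-MLL alone, proB ALL had the lowest signal of all 4 arrays for 6 members (F13a1, Fn1, Itgam, Csf1r, Cd14 and Lyz2) and B/T BAL for 3 (Cx3cr1, Ctss and Fcgr3), beside 29.9% and 23.1% of all tested genes. For F13a1, Fn1 and Lyz2 the proB ALL was at least 2-fold below every other array, and so was the B/T BAL for Cx3cr1, Ctss and Fcgr3, beside 3.71% and 4.08% of all tested genes. Between these 2, proB ALL was higher by 2-fold or more for Cx3cr1, Ctss and Fcgr3 and lower by as much for F13a1, Fn1 and Lyz2, beside 10.5% and 15.9% of all genes. The proB ALL and B/T BAL signals of Csf1r were nearly equal, and one of its other probe sets had 1253 in the proB ALL and 1209 in the B/T BAL, the opposite order, so its lowest array is not settled. The proB ALL and B/T BAL signals of Cx3cr1 were both below the floor, so these arrays have no order for Cx3cr1, which the counts include.

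The design sets leukemia against normal marrow, which limma compared as 3 arrays against 1. Of the 10 members, 0 passed an adjusted p of 0.05 in either direction, and 0 had an unadjusted p under 0.05, beside 0.314% of all tested genes that were higher and 2.63% that were lower at that unadjusted level. At the adjusted threshold limma called 0.0% of all tested genes in either direction. Log2 differences ran from -1.71 ± 1.30 (SE) for Cx3cr1 to 2.56 ± 1.57 for Vcan, each with an adjusted p in limma of 0.9999. For F13a1 the log2 difference was -1.20 ± 1.77 and for Fn1 0.15 ± 1.86, each with leukemias on both sides of normal marrow. Without the mixed lineage array, 9 of the 10 differences were negative and 4 members (Csf1r, Cx3cr1, Itgam and Fcgr3) were lower at an unadjusted p under 0.05 in limma, beside 6.5% of all tested genes lower and 2.27% higher in that fit. The adjusted p of the 10 in limma was 0.467 to 0.887.

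Limma was also used to compare the leukemia with both fusions and the leukemias with AF4-MLL alone, 1 array against 2. All 10 differences were positive, with a median log2 of 2.94 beside 0.10 over all tested genes. The largest was that of Fn1, 4.58 ± 1.15 (SE), followed by F13a1 at 4.22 ± 1.21, Itgam at 4.21 ± 0.77 and Vcan at 3.98 ± 0.73. Fcgr3 followed at 3.18 ± 0.76, Cx3cr1 at 2.71 ± 0.80, Lyz2 at 2.58 ± 0.80, Cd14 at 2.11 ± 0.79, Ctss at 1.89 ± 0.76 and Csf1r at 1.71 ± 0.47. With the mean over probe sets the Vcan difference was 1.95. No member passed limma's adjusted threshold (adjusted p 0.151 to 0.292), and 0 of all 14012 genes did, 0.0% in each direction. At an unadjusted p under 0.05 limma had 9 of the 10 members higher, all but Ctss (adjusted p = 0.292 in limma), beside 12.3% of all tested genes higher and 5.47% lower. These p-values set the difference against a spread that limma moderates toward a trend over all tested genes. Each gene's own spread has 1 residual degree of freedom, from the 2 AF4-MLL leukemias, which were typed differently. The fusion and the immunophenotype cannot be told apart.

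**Figure D3:**
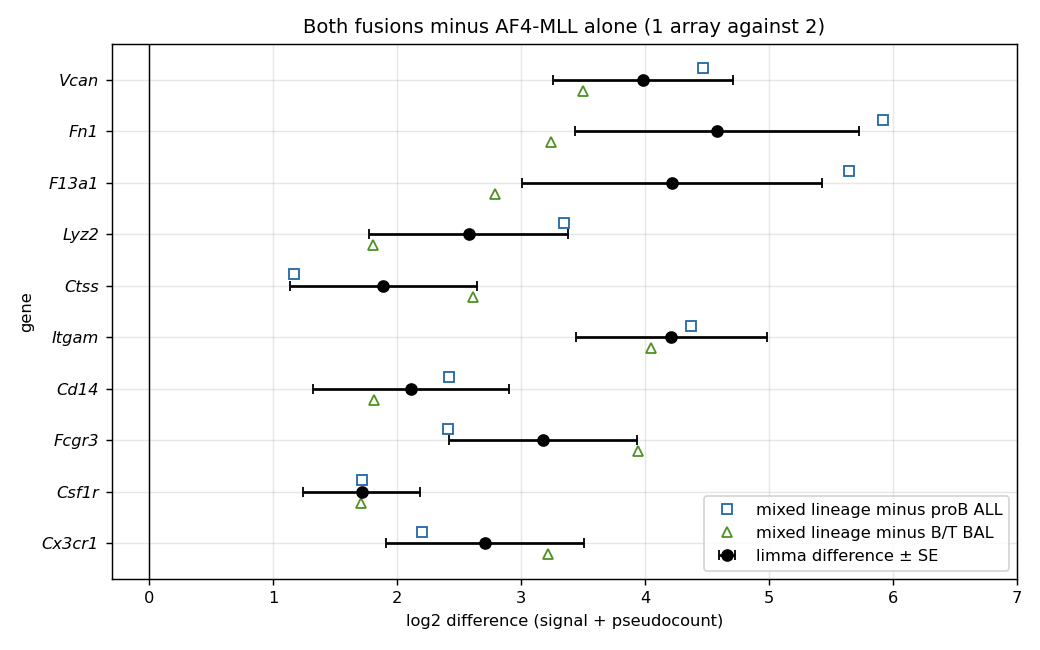
Log2 difference of the leukemia with both fusions from the leukemias with AF4-MLL alone for the 10 genes. Filled points are limma's difference with its SE (1 array against 2), open squares the difference from proB ALL and open triangles the difference from B/T BAL. All open points lie above 1, from 1.17 (Ctss against proB ALL) to 5.92 (Fn1 against proB ALL).

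Other monocyte genes were read beside the members. Of 25 measured, 14 were at least 2-fold higher and 1 lower in mixed lineage leukemia than in normal marrow, 4 were higher and 10 lower in proB ALL, and 0 were higher and 14 lower in B/T BAL. Over all tested genes these shares were 18.8% and 15.2%, 11.3% and 18.7%, and 15.4% and 17.7%. The median log2 differences of the 25 were 1.03 in the mixed lineage leukemia, -0.40 in the proB ALL and -1.22 in the B/T BAL. Set beside the members' medians, the lists were furthest apart in proB ALL. In that array the chemokine receptor Ccr2 had 11909.7 and the calcium-binding protein S100a4 had 19175, against 3169 and 6663 in normal marrow. T cells and natural killer cells also make both. By contrast S100a6, another calcium-binding protein, had 39546 in the mixed lineage leukemia, 1977 in the proB ALL, 13998 in the B/T BAL and 19222 in the normal marrow, an order shared with F13a1. The scavenger receptor Cd36, which red cell precursors also carry, had 1024 in the mixed lineage leukemia, 82.1 in the proB ALL, 91.1 in the B/T BAL and 6465 in the normal marrow and was the 1 gene of the list that was at least 2-fold lower in mixed lineage leukemia. Emilin2, a matrix glycoprotein, had 10988 in the mixed lineage leukemia, 926 in the proB ALL, 2322 in the B/T BAL and 12012 in the normal marrow, highest in normal marrow by a narrow margin. In limma 0 of the 25 passed the adjusted threshold between both fusions and AF4-MLL alone, and 14 were higher at an unadjusted p under 0.05, beside 12.3% of all tested genes. Ccr2 and S100a4 are named here after their values were seen.

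Of 20 ligands, receptors and partners of the members, 18 exceeded the floor on some array. In mixed lineage leukemia 3 of these (Tlr4, Lbp and Itga5) exceeded normal marrow by 2-fold or more and 0 were below it by as much, beside 18.8% and 15.2% of all tested genes. The Itga5 signal of normal marrow was below the floor, so its place among the 3 rests on a value without a measured level. The median log2 difference of the 18 was 0.46 in the mixed lineage leukemia, -0.50 in the proB ALL and -1.13 in the B/T BAL. In proB ALL 3 were higher (Itga5, Itgb1 and Icam1) and 7 lower, beside 11.3% and 18.7% of all tested genes. In B/T BAL 0 were higher and 11 lower, beside 15.4% and 17.7%. Limma called 0 of the 18 in either comparison at the adjusted threshold, and 5 were higher at an unadjusted p under 0.05 between both fusions and AF4-MLL alone, beside 12.3% of all tested genes. The fibronectin receptor chains were highest elsewhere: Itga5 had 301 in the mixed lineage leukemia, 481 in the proB ALL, 87.9 in the B/T BAL and 111 in the normal marrow, and Itgb1 had 1552 in the mixed lineage leukemia, 4488 in the proB ALL, 1815 in the B/T BAL and 1950.2 in the normal marrow. Itga4, which also binds fibronectin, had 4565 in the mixed lineage leukemia, 7699 in the proB ALL, 2058 in the B/T BAL and 8801 in the normal marrow. Cd44, a receptor for hyaluronan, had 30627 in the mixed lineage leukemia, 11064 in the proB ALL, 3284 in the B/T BAL and 16009.9 in the normal marrow, with its high in mixed lineage leukemia. The cathepsin inhibitor Cst3 had 37972 in the mixed lineage leukemia, 13595 in the proB ALL, 9119 in the B/T BAL and 19585 in the normal marrow, the same order as Ctss among mixed lineage leukemia, normal marrow, proB ALL and B/T BAL. The factor XIII B chain F13b, made in liver, was below the floor on all arrays. The receptors of other myeloid growth factors were not 2-fold higher in mixed lineage leukemia than in normal marrow. Csf2ra had 2971 in the mixed lineage leukemia, 519 in the proB ALL, 1494 in the B/T BAL and 3970 in the normal marrow. Csf3r had 4651 in the mixed lineage leukemia, 296 in the proB ALL, 976 in the B/T BAL and 9225 in the normal marrow, so both were highest in normal marrow. Il3ra had 714 in the mixed lineage leukemia, 232 in the proB ALL, 437 in the B/T BAL and 534 in the normal marrow.

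Markers of other marrow cells differed alongside the members to different degrees. Neutrophil genes had median log2 differences of 0.65 in the mixed lineage leukemia, -3.06 in the proB ALL and -1.42 in the B/T BAL, the same signs as the members. Of 16 measured neutrophil genes, 14 were highest on the mixed lineage array, as all 10 members were, beside 34.7% of all tested genes. There 16 were at least 2-fold higher than in proB ALL and 12 than in B/T BAL, beside 27.3% and 26.3%. Against normal marrow 2 were at least 2-fold higher in mixed lineage leukemia (18.8% of all tested genes). At least 2-fold above all other arrays was 1 (11.5%), where 7 of the 10 members were. Their summed signal was 915318 in the mixed lineage leukemia, 152472 in the proB ALL, 484285 in the B/T BAL and 548299 in the normal marrow, and the granule protein Ltf (lactoferrin) had 74360.1 in the mixed lineage leukemia, 2689.9 in the proB ALL, 24786 in the B/T BAL and 42139 in the normal marrow. The part of neutrophils in the signals of Lyz2 and Itgam was not tested. Macrophage genes had medians of -2.01 in the mixed lineage leukemia, -1.67 in the proB ALL and -2.33 in the B/T BAL. Of 15, 11 were at least 2-fold lower in mixed lineage leukemia than in normal marrow and 1 higher, beside 15.2% and 18.8% of all tested genes. C1qa, a complement protein of resident macrophages, had 443 in the mixed lineage leukemia, 4106 in the proB ALL, 1421 in the B/T BAL and 6048 in the normal marrow, and Adgre1 (F4/80) had 2286 in the mixed lineage leukemia, 465 in the proB ALL, 465 in the B/T BAL and 3283 in the normal marrow. The median of macrophage genes was therefore below normal marrow on every leukemia array, including the one where the 10 members were highest, though not every gene of the list was. Set against the proB ALL, 4 of the 15 were at least 2-fold higher on the mixed lineage array and 4 lower, beside 27.3% and 15.7% of all tested genes. Set against the B/T BAL, 6 were higher on it and 4 lower, beside 26.3% and 21.2%. The median of dendritic cell genes was -0.14 in the mixed lineage leukemia, -0.43 in the proB ALL and -1.16 in the B/T BAL, and these stayed nearest to normal marrow in mixed lineage leukemia. Natural killer cell genes stood out in the proB ALL, with a median of -0.29 in the mixed lineage leukemia, 3.97 in the proB ALL and -1.07 in the B/T BAL. T-cell genes stood out in the B/T BAL, with -0.37 in the mixed lineage leukemia, 0.88 in the proB ALL and 5.24 in the B/T BAL. B-cell genes were lower throughout, with -1.50 in the mixed lineage leukemia, -2.47 in the proB ALL and -4.05 in the B/T BAL, and so were megakaryocyte and platelet genes, with -2.12 in the mixed lineage leukemia, -2.83 in the proB ALL and -2.21 in the B/T BAL. Stromal and endothelial genes had -0.30 in the mixed lineage leukemia, -0.99 in the proB ALL and 0.17 in the B/T BAL.

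**Figure D4:**
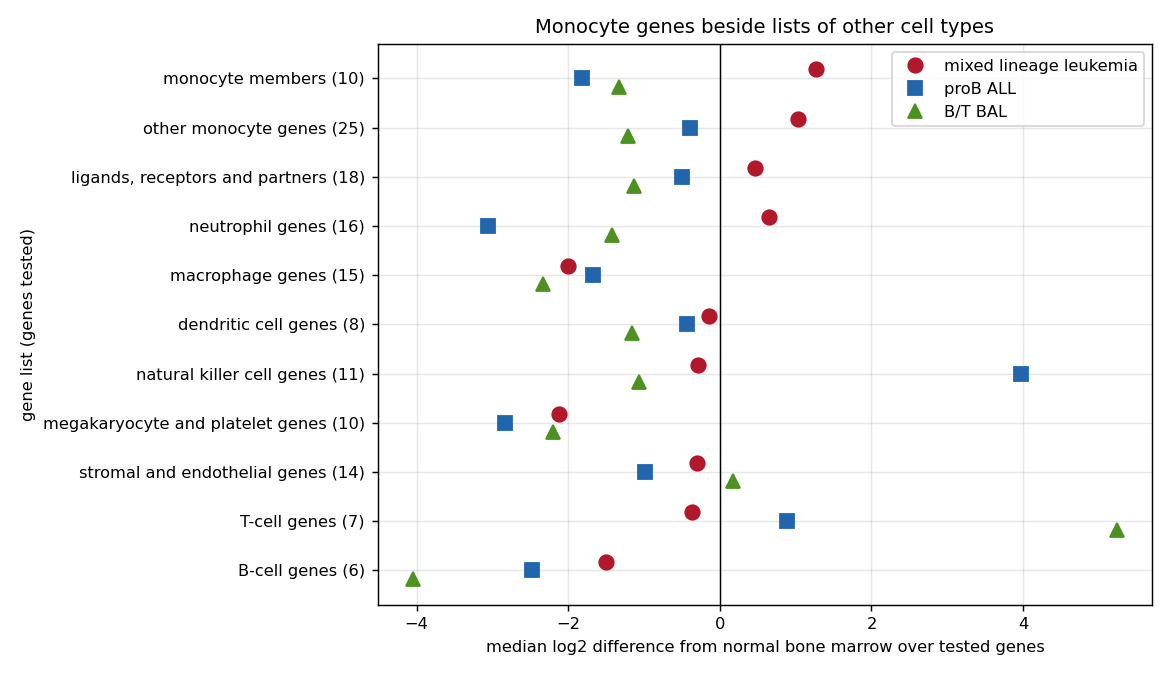
Median log2 difference of each leukemia from normal bone marrow over the tested genes of each list (number of genes in brackets), 1 point per array and no error because each group had 1 array. The 10 members, other monocyte genes, their partners and neutrophil genes lie above 0 in mixed lineage leukemia and below 0 in proB ALL and B/T BAL, while macrophage, dendritic cell, megakaryocyte and B-cell genes lie below 0 in all 3.

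Over the 14012 tested genes, those nearest to the members' median differences (1.27, -1.82 and -1.33 from normal marrow) were sought by Euclidean distance over the 3 leukemias. The nearest was Hp (haptoglobin, a haemoglobin-binding protein), at a distance of 0.114, with 52566 in the mixed lineage leukemia, 6833 in the proB ALL, 8938 in the B/T BAL and 22476 in the normal marrow. The next 7 were Il4, 9030619P08Rik, Tbc1d24, Gata2, Dock1, Klra2 and Igsf21, at distances of 0.153 to 0.300. Signals at or below the floor entered the distances of Il4, Klra2 and Igsf21 in both AF4-MLL leukemias and of Dock1 in the proB ALL, so their ranks rest on values without a measured level there. The normal marrow signal of Igsf21, 122, was also below the floor, so none of its differences has a measured reference. With 4 arrays many genes share any given order, so this list is a description.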

How the data were processed

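Total RNA of 4 mouse samples (3 leukemias and 1 normal marrow, 1 array each) was measured on Affymetrix arrays. The deposited values are intensity values, 1 linear signal per probe set, made by the authors with MAS5, per the submitters' processing notes, with no version, settings or detection calls stated there. The values show a trimmed mean of 1000 on each array. Of 45101 probe sets, 64 controls were left out, 34945 carried 1 gene symbol in the platform annotation, 932 several and 9160 none here. Signals were analysed as log2(signal + 51.4), the 25th percentile of all signals, with the median, 189, as floor. The brightest probe set on average (log2) stood for a gene, and the 14012 genes that exceeded the floor on some array were tested, all 10 members among them. Where the dimmer signal of a fold was not above the floor, the floor took its place and the fold reads "at least".

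Comparisons used limma 3.58.1 in R 4.3.3 (lmFit, eBayes with intensity trend, Benjamini-Hochberg over all tested genes), 3 arrays against 1 with 2 residual degrees of freedom, the lone normal array being assumed to vary like the leukemias, and 1 against 2 with 1. The p-values rest on the spread between different leukemias, not between replicates, moderated by limma toward a trend over all tested genes. The fits were tested on simulated data. Single arrays were compared by counts of genes at least 2-fold apart. The members, gene lists and tests were chosen with earlier results of these data known. Named genes are all members, all partners, up to 3 genes of each other list with the largest difference, fixed defining markers and the 8 genes nearest to the members' median; others, such as Fcgr2b, were chosen after their values were seen. Some genes of the lists were not analysed here. Promoter windows are from RefSeq (GRCm38.p6). Alternatives were other scalings, pseudocounts, filters, probe set choices, robust eBayes and leaving out each leukemia.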

Additional observations from a re-analysis of the deposited data

Results flagged for a closer look

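For 3 members the difference from normal marrow ran in opposite directions in the leukemia with both fusions and in each leukemia with AF4-MLL alone, at least 2-fold on every array, as it did for 1.37% of all tested genes. These were F13a1, Itgam and Fcgr3. The log2 difference between both fusions and AF4-MLL alone was 4.22 for F13a1, 4.21 for Itgam and 3.18 for Fcgr3. In limma, with 1 array against 2, the adjusted p was 0.198, 0.151 and 0.165, above the threshold for each.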

How the results depend on the processing

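No paired analysis was possible because each group held 1 array. Over 9 alternatives of scaling, pseudocount, filter, floor and probe set, 267 values of members against normal marrow were recomputed. The alternatives of the filter, and the one without probe sets of the kind that can bind related transcripts, left member values unchanged by construction. So did the mean over probe sets for members with 1 probe set, and raising dim signals for members above the floor. With these included, 264 of the 267 values kept their side of the 2-fold line, 3 crossed it and 0 turned sign after a 2-fold difference. The exceptions were Ctss in mixed lineage leukemia under quantile normalization (0.86), Cd14 in proB ALL with a pseudocount at the 50th percentile (-0.85) and Vcan in B/T BAL with the mean over probe sets (0.47), where the count of members at least 2-fold higher in B/T BAL was 0. The other counts of members stayed within 1.5 times their value. All 10 members were highest in mixed lineage leukemia, except that 8 were with the mean over probe sets and 9 of 9 with a filter at the 75th percentile, which left out Cx3cr1. Between leukemia and normal marrow limma called 0 members under every alternative run, the 3 fits without 1 leukemia included (0 to 0). Over all tested genes, 23 were lower with robust eBayes, 15 were lower with a pseudocount at the 50th percentile, 4 higher and 67 lower with proB ALL left out, and 4 higher and 109 lower with B/T BAL left out, against 0 otherwise. Between both fusions and AF4-MLL alone, Cx3cr1 was the only member that passed the adjusted threshold, and only once dim signals were set to the floor. That alternative gives both AF4-MLL arrays the same Cx3cr1 signal by construction, so its call rests on no measured spread. Many of all tested genes passed then too. Fewer members than in the main fit had an unadjusted p under 0.05 in limma under that alternative, and also with a filter at the 75th percentile. Leaving out an AF4-MLL leukemia left no residual spread and hence no test: the differences without proB ALL and without B/T BAL were 2.79 and 5.65 for F13a1, 3.24 and 5.92 for Fn1, and 3.94 and 2.42 for Fcgr3. Scaling to the 75th percentile moved the median of all genes in mixed lineage leukemia from 0.08 to 0.23, and the members' median to 1.41. Vcan in normal marrow, Itgam in proB ALL and Cx3cr1 in both AF4-MLL leukemias were below the floor, which bounds their differences.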
